A study of Mus musculus with 16 samples.

Results

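The respiratory chain genes of the mouse hippocampus were described across 16 bulk RNA sequencing libraries, with 106 member genes of 49671 gene rows counted. Members were chosen by symbol alone: Nduf, Uqcr and Atp5 genes, Sdha to Sdhd, the Cox4 to Cox8 subunits, and the protein genes of mitochondrial DNA. Cox7a2l, Ndufa4l2 and names ending in -ps were left out by the rule, and a member needed 10 counts over all libraries. Of 108 rows with a matching name, Cox8c had 0 counts and Ndufa11b had 2. Nuclear DNA encodes 93 of the members: 39 complex I subunits, 8 complex I assembly factors of the Ndufaf type, 4 subunits of complex II, 8 of complex III, 17 of complex IV and 17 of complex V. Mitochondrial DNA encodes the other 13. Ndufb4c, Ndufs6b and Cox6c2 are annotated as pseudogenes.

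All mice were 8-month-old females, and 4 libraries were made in each of 4 groups. WT mice carried neither alteration, p16KO mice lacked p16, PS19 mice carried the tau transgene with p16 intact, and PS19_p16KO mice combined the transgene with the p16 knockout. PS19 is a model of tauopathy that expresses a human mutant tau from the mouse prion promoter, and p16 is the cell cycle inhibitor made from Cdkn2a. The labels name no strain, no litter and, in words, no separate animals, so p-values measure only the spread between these samples. In bulk RNA, fewer cells of a type and less RNA per cell cannot be told apart.

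Oxidative phosphorylation passes electrons from NADH through complex I, or from succinate through complex II, to ubiquinone, complex III, cytochrome c and complex IV, where oxygen is reduced. Complexes I, III and IV pump protons across the inner mitochondrial membrane, and complex V, the ATP synthase, uses the gradient to make ATP. Complexes I, III, IV and V are built from products of both genomes, while complex II is wholly nuclear. Neurons depend heavily on this pathway to restore ion gradients after synaptic activity.

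Libraries held from 18485552 to 22311322 gene counts each, and levels are reported in CPM, gene counts corrected for library size by TMM. Hippocampal markers were present in every library, with the dentate gene Prox1 at 117 to 172 CPM and the CA1 genes Wfs1 and Fibcd1 at 112 to 222 and 166 to 241 CPM. The cerebellar marker Pcp2 reached at most 0.256 CPM. Cdkn2a held 8 counts over the 4 WT libraries, 18 over PS19, 3 over p16KO and 2 over PS19_p16KO, with at most 1 in any library lacking p16, which is too few to check a single library's label. Choroid plexus RNA stood out in 3 libraries: Ttr was at 713 CPM in WT 1, 2978 in p16KO 4 and 5122 in PS19_p16KO 3, against 153 in p16KO 1 and 7.39 to 30.8 in the others. Summed over 10 choroid plexus markers, of which 1, Otx2, was at 0 in some library, the level was 194 to 1671 CPM in WT, 224 to 5795 in p16KO, 199 to 267 in PS19 and 219 to 9082 in PS19_p16KO.

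The 13 mitochondrial members together yielded more counts than the 93 nuclear ones in every library. They held 1.04% to 1.77% of all gene counts, and the nuclear members held 0.824% to 0.979%. Of the 13, 7 had at least 96359 counts each over all libraries, and the others at most 384. The mitochondrial sums and the ratios of summed counts given here therefore rest on those 7. Summed mitochondrial CPM was 12451, 12119, 15788 and 17825 in WT, 15158, 13643, 13817 and 12755 in p16KO, 12094, 17261, 10418 and 12708 in PS19 and 12509.8, 11954, 12500.0 and 15224 in PS19_p16KO. WT 4 and PS19 2 were highest and PS19 3 lowest, so the extremes lay within the p16-intact groups and all 4 groups overlapped. Summed nuclear CPM was 8687, 8281, 8718 and 8705 in WT, 9503, 8401, 8538 and 8468 in p16KO, 8954, 8709, 8485 and 8671 in PS19 and 9267, 8680.1, 9674 and 8990.0 in PS19_p16KO. The highest library exceeded the lowest 1.71-fold for the mitochondrial sum but 1.17-fold for the nuclear sum. Among members at 10 CPM or more, the coefficient of variation within groups had a median of 16.5% over 7 mitochondrial genes and 7.69% over 82 nuclear genes.

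**Figure D1:**
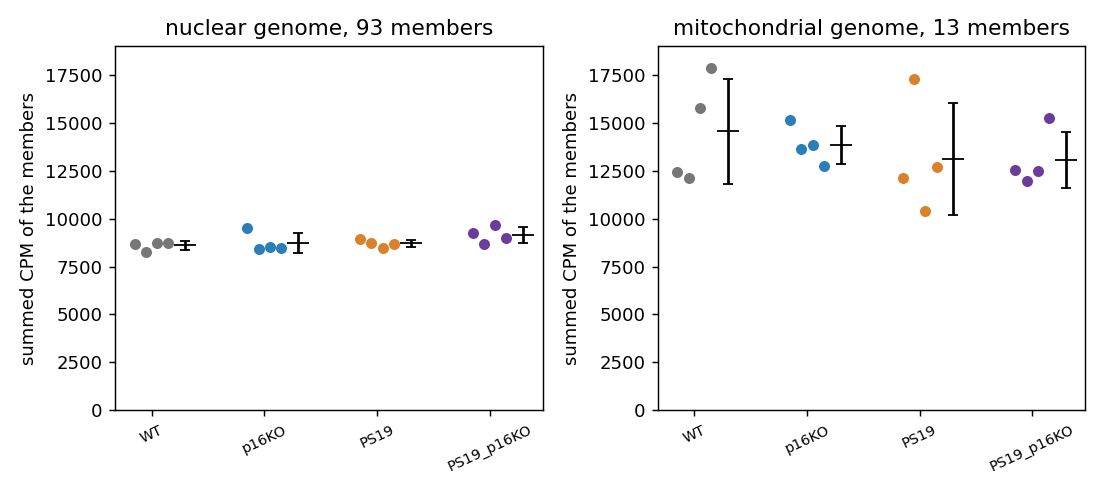
Summed CPM of the 93 nuclear (left) and 13 mitochondrial members (right) by group. Points are libraries, and bars beside them are the mean ± SD of 4 libraries; the mitochondrial sum ranges from 10418 to 17825 CPM and the nuclear sum from 8281 to 9674 CPM, with every group overlapping.

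Within a library, the ratio of mitochondrial to nuclear counts does not depend on how libraries are scaled to each other. It averaged 1.69 ± 0.294 in WT (SD, n = 4), 1.59 ± 0.0546 in p16KO, 1.51 ± 0.331 in PS19 and 1.43 ± 0.180 in PS19_p16KO. The differences of mean log2 ratio were -0.17 for PS19 against WT, -0.075 for p16KO against WT, -0.061 for PS19_p16KO against PS19 and -0.16 for PS19_p16KO against p16KO. Each was smaller than 0.21, the pooled SD of the log2 ratio within groups. That SD is the spread of single libraries, so it does not measure the uncertainty of a difference between group means. When every member was given equal weight, the PS19 against WT difference was -0.41, a setting in which low-count genes weigh as much as abundant ones.

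No member passed an adjusted p of 0.05 in edgeR's quasi-likelihood test in any of 5 comparisons over the 98 members that could be tested. The other 8 lay under the filter on low counts: Cox4i2, Cox7b2, Ndufs6b, Cox8b, Cox6c2, Ndufb4c, mt-Atp8 and mt-Nd3. Over all 16372 genes tested, the share called was 1.61% for PS19 against WT, 0% for p16KO against WT, 0.825% for PS19_p16KO against PS19, 0.0183% for PS19_p16KO against p16KO and 0.00611% for the interaction of the genotypes. At an unadjusted p under 0.05, 5 members passed for PS19 against WT, all lower, where 9.57% of all genes did in either direction and 2.77% were lower. For p16KO against WT 2 members passed, where 3.99% of all genes did. For PS19_p16KO against PS19 9 members passed, all higher, against 8.59% of all genes in either direction and 3.12% higher. For PS19_p16KO against p16KO 7 passed (3.65% of all genes), and for the interaction 1 passed (5.44%). DESeq2 called 1 member, Ndufaf4, in PS19 against WT and 0 in the other comparisons, and limma-voom called 0 in all 5.

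As a whole the nuclear members moved little. Their median log2 fold change was 0.041 for PS19 against WT, 0.029 for p16KO against WT, 0.072 for PS19_p16KO against PS19 and 0.065 for PS19_p16KO against p16KO, beside medians over all genes of -0.0051, -0.00083, 0.0018 and 0.0047. The SD between libraries of a group in the median log2 CPM of nuclear members was 0.10, larger than each of these. It is a spread of single libraries and not of differences between group means. Positive values were held by 57, 61, 75 and 72 of 87 nuclear members in these comparisons, where 48.3%, 49.7%, 50.6% and 51.8% of all genes were positive. With spike-in scaling the p16KO against WT median turned to -0.029, and without p16KO 1 to -0.023. The members share libraries and scaling, and comparisons that share a group share its libraries, so these counts are not independent. The 95% interval of the fold change lay within 1.5-fold in either direction for 84, 82, 84 and 84 of the 87. The mitochondrial members had medians of -0.17, -0.13, -0.004 and -0.093 in the same order, with 0, 2, 5 and 1 of 11 positive. Their SD between single libraries was 0.25.

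**Figure D2:**
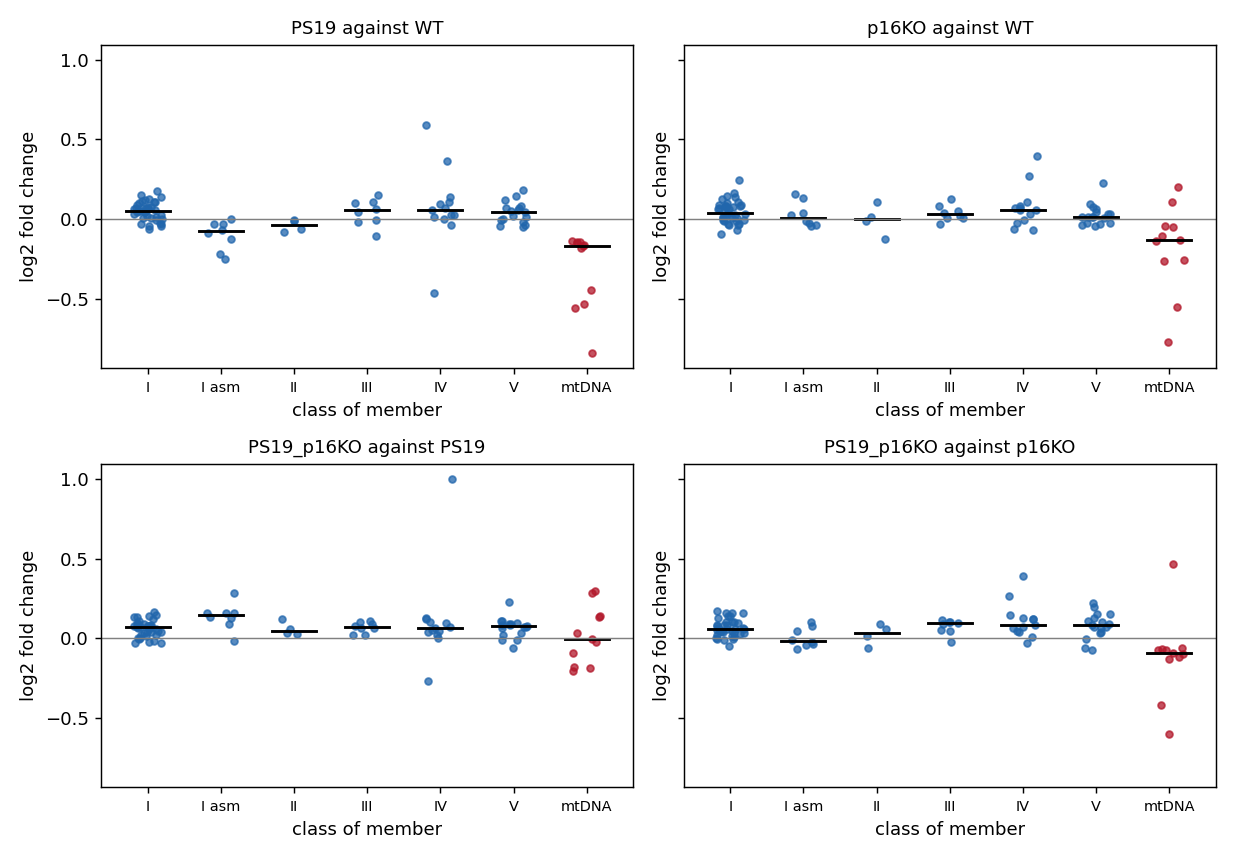
Log2 fold change of the 98 tested members in the 4 pairwise comparisons, by class: complex I subunits, Ndufaf assembly factors (I asm), complexes II to V and members of mitochondrial DNA (red). Points are genes and black lines class medians; the assembly factors have a median of -0.078 for PS19 against WT and 0.14 for PS19_p16KO against PS19, and none of the points passed the adjusted threshold.

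Complex I, the NADH dehydrogenase, had 37 tested nuclear subunits with median log2 fold changes of 0.052, 0.039, 0.070 and 0.060 in the order of the 4 pairwise comparisons above. Per kilobase of transcript, Ndufa4 was the most abundant at 263 CPM per kb, followed by Ndufb10 at 124, while the median subunit had 63.3. Ndufa4 is now counted as a subunit of complex IV by its protein, although it bears a complex I name. Ndufv1, which carries the FMN site where NADH is oxidized, had the smallest p of the class for PS19_p16KO against p16KO. Its level was 163, 160.0, 161 and 159.7 CPM in WT and 165, 168, 152 and 155 in p16KO. In the transgenic groups it was 171, 150.4, 162 and 164 CPM in PS19 and 178, 161, 177 and 181 in PS19_p16KO. The ranges of all groups overlapped, and the log2 fold change was 0.12 ± 0.050 against p16KO (adjusted p = 0.999) and 0.11 ± 0.050 against PS19 (adjusted p = 0.565).

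Ndufs4, a late-assembling accessory subunit whose loss causes Leigh-like disease in mice, averaged 32.7 ± 2.36 CPM in WT (SD, n = 4), 35.7 ± 3.73 in p16KO, 32.0 ± 1.70 in PS19 and 35.8 ± 2.12 in PS19_p16KO. Its PS19_p16KO against PS19 log2 fold change was 0.16 ± 0.075 (adjusted p = 0.548). The largest core subunit by mass in the peripheral arm, Ndufs1, ranged only from 142 to 166 CPM over the 16 libraries. Ndufa12 ranged from 56.0 to 73.7 and Ndufb6 from 34.7 to 46.0 CPM, with adjusted p of at least 0.552 and 0.701 in the pairwise comparisons. Ndufs8, an iron-sulfur subunit, was the 1 complex I subunit whose libraries did not overlap in a comparison, being higher in all 4 PS19_p16KO than in all 4 PS19 libraries, where 4.09% of all genes did not overlap (log2 fold change 0.089 ± 0.054, adjusted p = 0.716).

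The 8 Ndufaf assembly factors, which build complex I without being part of it, were the nuclear class with the lowest median for PS19 against WT, with 0 of 8 positive and a median of -0.078. For PS19_p16KO against PS19, which shares the PS19 libraries, 7 of 8 were positive with a median of 0.14. For p16KO against WT 4 of 8 were positive, and for PS19_p16KO against p16KO 3 of 8. Libraries did not overlap for 4 of the 8 in PS19_p16KO against PS19 (Ndufaf2, Ndufaf4, Ndufaf5 and Ndufaf7, all higher), against 1.56% of all genes that lay higher without overlap. For PS19 against WT, where 5.04% of all genes did not overlap and 1.47% lay lower, this held for Ndufaf4 alone among the 8. None of the 8 passed the adjusted test. Complex II had 0 of 4 positive for PS19 against WT and 4 of 4 for PS19_p16KO against PS19. Of 40 tested assembly factors outside the Ndufaf type, 19 and 22 were positive, with medians of -0.0022 and 0.016 in that order. Among all genes 48.3% and 50.6% were positive.

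Ndufaf4, an early assembly factor at chr4:24898083-24905001 in GRCm38, had the smallest p of any member. Its level was 26.2, 28.1, 29.0 and 25.3 CPM in WT and 30.1, 25.8, 25.9 and 25.1 in p16KO. With the transgene it was 23.0, 22.1, 24.5 and 21.7 CPM in PS19 and 24.6, 26.2, 26.2 and 24.9 in PS19_p16KO. All 4 PS19 libraries lay below all 4 WT libraries and, with PS19 3 at the top of its group, below all 4 PS19_p16KO libraries. The log2 fold change was -0.25 ± 0.070 for PS19 against WT (adjusted p = 0.0828) and 0.16 ± 0.070 for PS19_p16KO against PS19 (adjusted p = 0.512). The interaction was 0.18 ± 0.10 (adjusted p = 0.999). DESeq2 placed the PS19 against WT value just inside the threshold, at -0.26 with an adjusted p of 0.0494, and leaving out PS19 3 in edgeR gave -0.29 with an adjusted p of 0.0425.

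**Figure D3:**
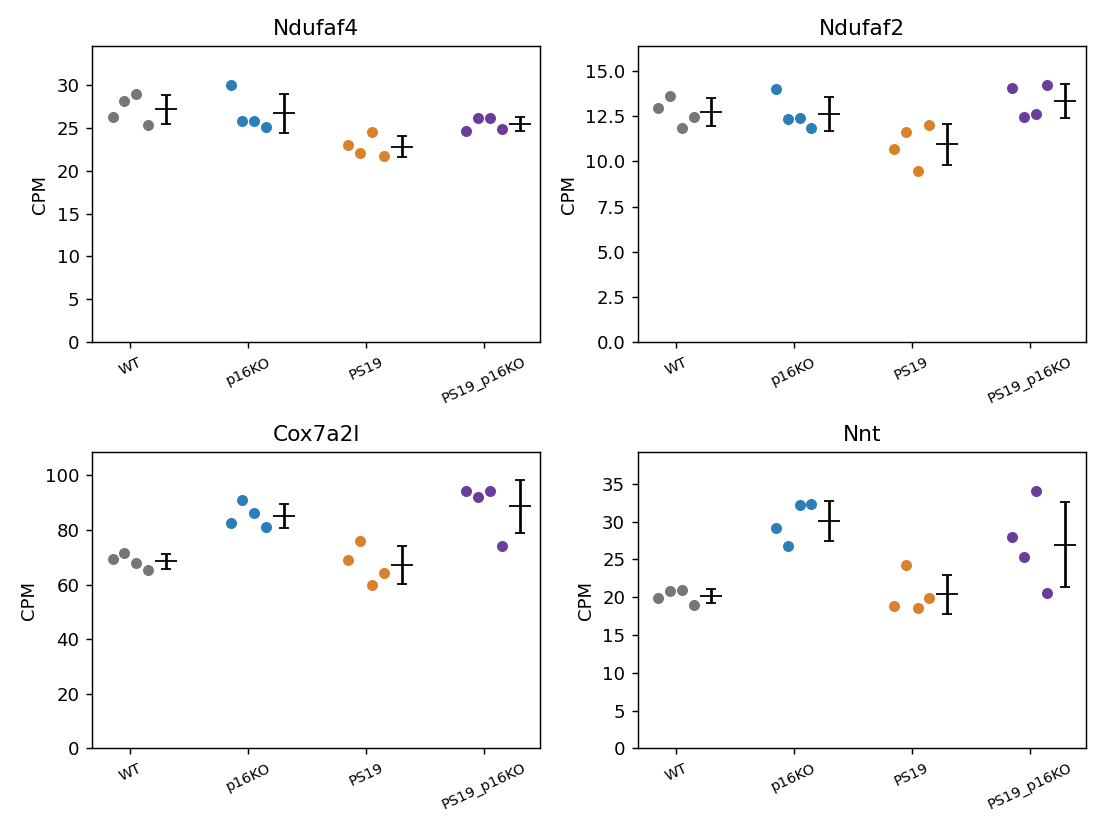
CPM of Ndufaf4, Ndufaf2, Cox7a2l and Nnt by group, with points for libraries and bars for the mean ± SD of 4 libraries; axes start at 0. Ndufaf4 averages 22.8 CPM in PS19 against 27.1 in WT, while Cox7a2l and Nnt have higher means in both groups without p16.

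Ndufaf2, the assembly factor that resembles Ndufa12, was read at 13.0, 13.6, 11.9 and 12.5 CPM in WT and 14, 12.3, 12.4 and 11.8 in p16KO. The transgenic groups had 10.7, 11.6, 9.49 and 12 CPM in PS19 and 14.1, 12.4, 12.6 and 14.3 in PS19_p16KO. PS19 3 was lowest of the 16, and every PS19_p16KO library exceeded every PS19 library. Its log2 fold change was -0.22 ± 0.093 for PS19 against WT (adjusted p = 0.417) and 0.29 ± 0.093 for PS19_p16KO against PS19 (adjusted p = 0.225). Of its 100-base words, 62.4% also occur in another annotated gene, so its counts may be shared with that row. Ndufaf5, a hydroxylase of the Ndufs7 subunit, averaged 21.9 ± 2.36, 22.5 ± 2.01, 20.1 ± 1.08 and 22.0 ± 0.614 CPM in WT, p16KO, PS19 and PS19_p16KO. Ndufaf7, a mitochondrial methyltransferase, averaged 26.2 ± 2.66, 28.7 ± 2.16, 25.6 ± 1.36 and 28.5 ± 0.769 in that order. Their adjusted p for PS19_p16KO against PS19 were 0.727 and 0.572.

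NRF1 is a transcription factor known to bind many nuclear respiratory gene promoters at a palindromic site, so the 250 bases before the start of each gene were searched for its core letters, CGCATGCG, which read the same on both strands, in RefSeq promoters (GRCm38.p6). Of the 93 nuclear members, 73 matched a symbol in that table, with 78 promoters. The motif was found in 8 of the 78 (10.3%), those of Ndufaf4, Ndufa8, Ndufa11, Cox6a1, Atp5g2, Atp5j, Atp5k and Atp5l, against 1.55% of all 32851 promoters of the same length. These core letters were chosen after a longer form of the same site had been searched and its matches seen. An ETS-type site, CCGGAAGT, of the kind bound by GABPA, was found on either strand in 3 of the 78 (3.85%) and in 2.88% of all. Shown are the stretch before Ndufaf4, the member with the smallest p, at chr4:24897911-24898038 on the plus strand, and that before Cox6a1, among the most abundant complex IV members, at chr5:115349052-115349179 on the minus strand, with the motif in capitals.
Ndufaf4: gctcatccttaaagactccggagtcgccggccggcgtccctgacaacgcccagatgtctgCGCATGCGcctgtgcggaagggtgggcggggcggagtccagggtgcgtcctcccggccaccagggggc
Cox6a1: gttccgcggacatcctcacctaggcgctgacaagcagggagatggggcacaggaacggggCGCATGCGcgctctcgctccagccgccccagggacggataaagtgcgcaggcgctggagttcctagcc
The motif begins 112 bases before the annotated start of Ndufaf4 and 161 before that of Cox6a1. A match describes letters in the window and was not tied to binding or to a level here.

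Complex II links the citric acid cycle to the chain as succinate dehydrogenase, and its 4 subunits had median log2 fold changes between -0.037 and 0.045 in the 4 pairwise comparisons. For Sdha, the flavoprotein, the 12 libraries of WT, p16KO and PS19 lay between 463 and 479 CPM, and those of PS19_p16KO at 483, 461, 498 and 514. Its highest library exceeded its lowest 1.12-fold, the smallest ratio of any member at 10 CPM or more. Sdhb, the iron-sulfur subunit, was at 109.9, 107, 109 and 103 CPM in WT and 121, 116, 115 and 110.1 in p16KO. In the other groups it was at 112, 102, 105 and 109 CPM in PS19 and 112, 116, 126 and 112 in PS19_p16KO. All p16KO libraries, the lowest at 110 CPM, lay above all WT libraries by a narrow margin, while PS19_p16KO and PS19 met at 112 CPM. For Sdhb the log2 fold change was 0.11 ± 0.049 for p16KO against WT (adjusted p = 0.999) and 0.12 ± 0.049 for PS19_p16KO against PS19 (adjusted p = 0.394). For p16KO against WT, 2.94% of all genes did not overlap. Sdhd, a membrane anchor, averaged 66.4 ± 3.79, 67.1 ± 5.14, 62.8 ± 2.08 and 64.3 ± 6.12 CPM in WT, p16KO, PS19 and PS19_p16KO.

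Complex III passes electrons from ubiquinol to cytochrome c, and 8 of its nuclear subunits were members. Per length, Uqcrq led with 136 CPM per kb and Uqcrc1 followed with 116. Uqcrc2, a core subunit at chr7:120635176-120659524, was at 194, 209.7, 198 and 204 CPM in WT and 211, 204, 197 and 196 in p16KO. Under the transgene it was at 190.4, 191, 182 and 184 CPM in PS19 and 188, 198, 205 and 204 in PS19_p16KO. The 4 PS19 libraries lay under the 4 WT libraries, where 1.47% of all genes lay lower without overlap. The highest PS19 value, 191 CPM, lay above the lowest of PS19_p16KO. For PS19 against WT its log2 fold change was -0.11 ± 0.044 (adjusted p = 0.378). Uqcrc1, the other core subunit, averaged 186 ± 2.43, 187 ± 6.02, 192 ± 6.94 and 200.3 ± 10.9 CPM, an order of group means unlike that of Uqcrc2. For PS19_p16KO against p16KO its log2 fold change was 0.10 ± 0.046 (adjusted p = 0.999). The Rieske protein gene Uqcrfs1 ranged from 85.0 to 105 CPM and Uqcr11 from 36.1 to 56.2.

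Complex IV, the cytochrome c oxidase, has subunits with paired isoforms, and the widely expressed isoform was the abundant one in all 6 pairs. Cox4i1 had 548 CPM per kb, Cox6a1 459, Cox8a 289.7, Cox6b1 156, Cox7a2 89.4 and Cox7b 49.9. Their partners, known from heart, skeletal muscle, lung or testis, had 0.446 for Cox4i2, 2.13 for Cox6a2, 1.39 for Cox8b, 3.83 for Cox6b2, 1.66 for Cox7a1 and 0.161 for Cox7b2. Of 7 skeletal muscle markers in the same libraries, Ckm reached at most 0.215 CPM, while Acta1 was the highest, between 3.44 and 6.19. Of the abundant isoforms none passed the test in any comparison. Cox4i1 averaged 401 ± 36.8, 410.4 ± 34.7, 408 ± 20.3 and 436 ± 41.9 CPM in WT, p16KO, PS19 and PS19_p16KO, and Cox6a1 averaged 252 ± 27.3, 265 ± 25.1, 254 ± 15.2 and 277 ± 23.5.

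Cox7a1, the isoform typical of heart and skeletal muscle, had the largest fold change of any tested member. It was read at 0.625, 0.855, 0.791 and 0.376 CPM in WT and 0.945, 0.410, 0.97 and 0.886 in p16KO. Transgenic groups had 0.323, 0.569, 0.486 and 0.543 CPM in PS19 and 1.10, 0.904, 1.17 and 0.710 in PS19_p16KO. These levels rest on 53, 65, 37 and 75 counts in WT, p16KO, PS19 and PS19_p16KO. All PS19_p16KO libraries lay above all PS19 libraries, where 1.56% of all genes lay higher without overlap, but overlapped the other groups. Fitted log2 fold changes were 1.0 ± 0.34 for PS19_p16KO against PS19 (adjusted p = 0.261) and -0.46 ± 0.35 for PS19 against WT (adjusted p = 0.79).

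Cox8b, the heart and muscle isoform of Cox8, followed the choroid plexus libraries. It was at 0.782, 0.0450, 0.158 and 0.107 CPM in WT and 0.270, 0.0512, 0.103 and 1.51 in p16KO. Among transgenic libraries it was at 0.0538, 0.190, 0.162 and 0.380 CPM in PS19 and 0.191, 0.0532, 3.76 and 0.164 in PS19_p16KO. The 3 highest values, in PS19_p16KO 3, p16KO 4 and WT 1, are those of the 3 libraries highest in Ttr and stand in the same order. Cox6b2, the testis-type isoform of Cox6b, was also highest in PS19_p16KO 3 with 4.24 CPM and p16KO 4 with 2.71, and lay between 0.716 and 2.42 elsewhere. The part of choroid plexus RNA in these levels was not tested. Cox6c, one of the smallest subunits, ranged from 90.1 to 126 CPM and Cox5a from 62.7 to 77.8, with overlapping groups.

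Complex V, the ATP synthase, held the most abundant nuclear members by CPM, Atp5b and Atp5a1. Per length Atp5b, the catalytic beta subunit, led with 589 CPM per kb. Atp5a1, the alpha subunit, had 348, less than Cox4i1 and Cox6a1 of complex IV. Atp5a1 was at 877, 894, 874 and 915 CPM in WT and 871, 876, 865 and 879.9 in p16KO. PS19 carriers had 906, 850.5, 901 and 903 CPM in PS19 and 898, 909, 973 and 938 in PS19_p16KO. The PS19_p16KO libraries lay above all p16KO libraries, the 1 member of the 98 for which these groups did not overlap where 2.8% of all genes did not, and overlapped PS19 and WT. Against p16KO the log2 fold change was 0.091 ± 0.043 (adjusted p = 0.999). Atp5g1, one of 3 genes for the c ring subunit, averaged 89.7 ± 3.15, 94.3 ± 6.94, 94.2 ± 7.40 and 110.1 ± 19.3 CPM, where 138 CPM in PS19_p16KO 3 was the highest of the 16. Its log2 fold change for PS19_p16KO against PS19 was 0.23 ± 0.092 (adjusted p = 0.443). Atp5g3, the most abundant of the c ring genes by CPM, averaged 163 ± 1.91, 159 ± 7.50, 161 ± 5.56 and 171 ± 14.4. Atp5j ranged from 95.8 to 122 CPM, Atp5k from 19.3 to 40.1 and Atp5mpl from 23.3 to 34.2, with p16KO 1 highest for Atp5k and Atp5mpl.

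The 13 genes of mitochondrial DNA fell into separate ranges of counts. Over all libraries mt-Co1 had 1698281 counts, mt-Cytb 723413, mt-Nd5 533566, mt-Nd1 518120, mt-Nd2 399211, mt-Nd4 303726 and mt-Nd6 96359. The other 6 had 384 for mt-Nd4l, 353 for mt-Co3, 343 for mt-Atp6, 248 for mt-Co2, 104 for mt-Atp8 and 45 for mt-Nd3. These 6 include core subunits of complex IV and the proton channel subunit of complex V, which are cut from the same long transcript as their well-counted neighbours. Of the 6, 5 share nearly all their sequence with unprocessed pseudogenes on chromosome 1, annotated between chr1:24611535 and chr1:24616197.

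Sequence sharing was measured as the percentage of a gene's 100-base words that occur in any other annotated transcript (GENCODE M21, GRCm38). It was 99.8% for mt-Co3, 99.5% for mt-Co2, 99.5% for mt-Atp6, 98.5% for mt-Nd4l and 97.6% for mt-Nd3. The well-counted mt-Nd4 had 60.8%, mt-Co1 30.8% and mt-Nd2 3.20%, and mt-Nd1, mt-Nd5, mt-Nd6 and mt-Cytb had 0%. Aligned without gaps, mt-Co2 and its copy Gm28661 had 0 mismatches over 681 bases, mt-Co3 and Gm28437 had 0 over 783, and mt-Atp6 and Gm10925 had 0 over 678. The mt-Nd4l gene and Gm10222 had 0 mismatches over 294 bases. The mt-Nd3 gene and Gm28438 differed by 1 substitution over 345 bases, T3C, with the base of mt-Nd3 first and positions counted from 1 at its start.

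The following stretches of 60 bases show how close the copies are. They come from the start of mt-Nd3 (chrM:9459-9518, plus strand) and its copy Gm28438 (chr1:24613060-24613119, minus strand), and from mt-Co2 (chrM:7323-7382, plus strand) and Gm28661 (chr1:24615196-24615255, minus strand), and a base that differs within a pair is in capitals.
mt-Nd3: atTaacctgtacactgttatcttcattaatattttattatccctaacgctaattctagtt
Gm28438: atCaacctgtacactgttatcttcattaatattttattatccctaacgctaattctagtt
mt-Co2: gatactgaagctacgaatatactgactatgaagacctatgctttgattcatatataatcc
Gm28661: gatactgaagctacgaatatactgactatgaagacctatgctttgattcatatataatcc
A read within such a stretch of mt-Co2 has the same letters as its copy. The copies themselves held few counts: 278 for Gm28661, 1306 for Gm28437, 447 for Gm10925, 732 for Gm10222 and 6221 for Gm28438, the 1 pair of these with a differing base. How the authors counted reads with more than 1 position is not given, and its part in the low counts was not tested. The exception was mt-Atp8, with 0% shared words among annotated transcripts and 104 counts over a length of 204 bases. Sequence between annotated genes was not searched.

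**Figure D4:**
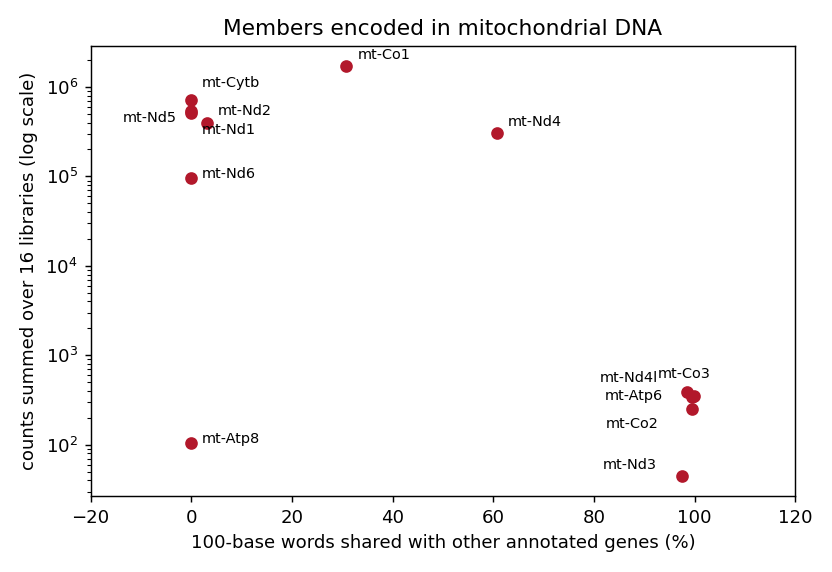
Counts summed over 16 libraries (log axis) of the 13 mitochondrial members against the percentage of their 100-base words found in other annotated genes. The 5 members near 100% have 45 to 384 counts, the 7 well-counted members have 96359 to 1698281, and mt-Atp8 has 104 counts at 0%.

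The 11 mitochondrial members that entered the test include 4 with fewer than 400 counts in all. For these, log2 fold changes for PS19 against WT were -0.84 ± 0.35 for mt-Nd4l, -0.56 ± 0.26 for mt-Co3, -0.53 ± 0.35 for mt-Co2 and -0.45 ± 0.31 for mt-Atp6, with adjusted p of at least 0.387. For p16KO against WT mt-Atp6 was lower in all 4 p16KO than in all 4 WT libraries, with 66 counts against 110 over the 4 libraries (log2 fold change -0.77 ± 0.32, adjusted p = 0.999). In that comparison 2.94% of all genes did not overlap in either direction. The 7 well-counted members had values between -0.18 and -0.14 for PS19 against WT. Per length mt-Co1, the catalytic subunit of complex IV, had 3509.8 CPM per kb, mt-Cytb of complex III 2017, mt-Nd1 1727, mt-Nd2 1227, mt-Nd5 933, mt-Nd4 703 and mt-Nd6 592. The most abundant nuclear member, Atp5b, had 589. Other annotated genes share 60.8% of the 100-base words of mt-Nd4 and 30.8% of those of mt-Co1. The levels per length of mt-Nd4 and mt-Co1 are therefore less certain than those of genes without shared words.

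While no mitochondrial member passed the test on its level, the proportions among the 7 well-counted ones differed with p16 genotype. This contrast was chosen after its values were seen. With no strain or litter named in the labels, p16 genotype cannot be told apart from a difference of strain or litter. The share of mt-Nd1, a core membrane subunit of complex I, in the summed counts of the 7 was 12.6, 13.2, 13.1 and 12.6% in WT, 12.2, 10.6, 11.2 and 10.9% in p16KO, 12.9, 13.0, 13.1 and 12.6% in PS19 and 11.1, 11.5, 11.7 and 11.4% in PS19_p16KO. All 8 libraries with p16 intact lay between 12.6% and 13.2%, and all 8 without p16 between 10.6% and 12.2%. The share of mt-Nd2, its neighbour in the genome and in complex I, was 9.55, 10.2, 10.2 and 10.1% in WT, 9.19, 8.58, 8.67 and 8.73% in p16KO, 9.43, 10.2, 9.71 and 9.94% in PS19 and 8.43, 8.48, 8.66 and 8.84% in PS19_p16KO. It did not overlap between the p16 genotypes either, whether or not the transgene was present.

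The genes mt-Nd5 and mt-Nd6, also of complex I, had the opposite direction. For mt-Nd6, the 1 protein gene on the light strand, the share was 2.09, 2.18, 2.10 and 1.87% in WT, 2.35, 2.59, 2.41 and 2.52% in p16KO, 2.09, 2.04, 2.0 and 1.96% in PS19 and 2.59, 2.45, 2.87 and 2.11% in PS19_p16KO. Every library without p16 except PS19_p16KO 4 lay above all with p16 intact, and PS19_p16KO 4 lay above the 4 PS19 libraries. The share of mt-Nd5 was 11.9, 12.4, 12 and 11.1% in WT, 12.3, 14.1, 13.6 and 13.6% in p16KO, 12, 11.5, 12.1 and 11.8% in PS19 and 13.5, 14, 12.8 and 12% in PS19_p16KO, with a higher mean without p16 in both strata and overlapping libraries. Shares sum to 100%, so a lower share of one gene raises those of others. The end of mt-Nd5 (chrM:11742-13565) overlaps the end of mt-Nd6 (chrM:13552-14070) on the opposite strand, and without a stated strand setting mt-Nd6 reads cannot be told from antisense RNA.

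**Figure D5:**
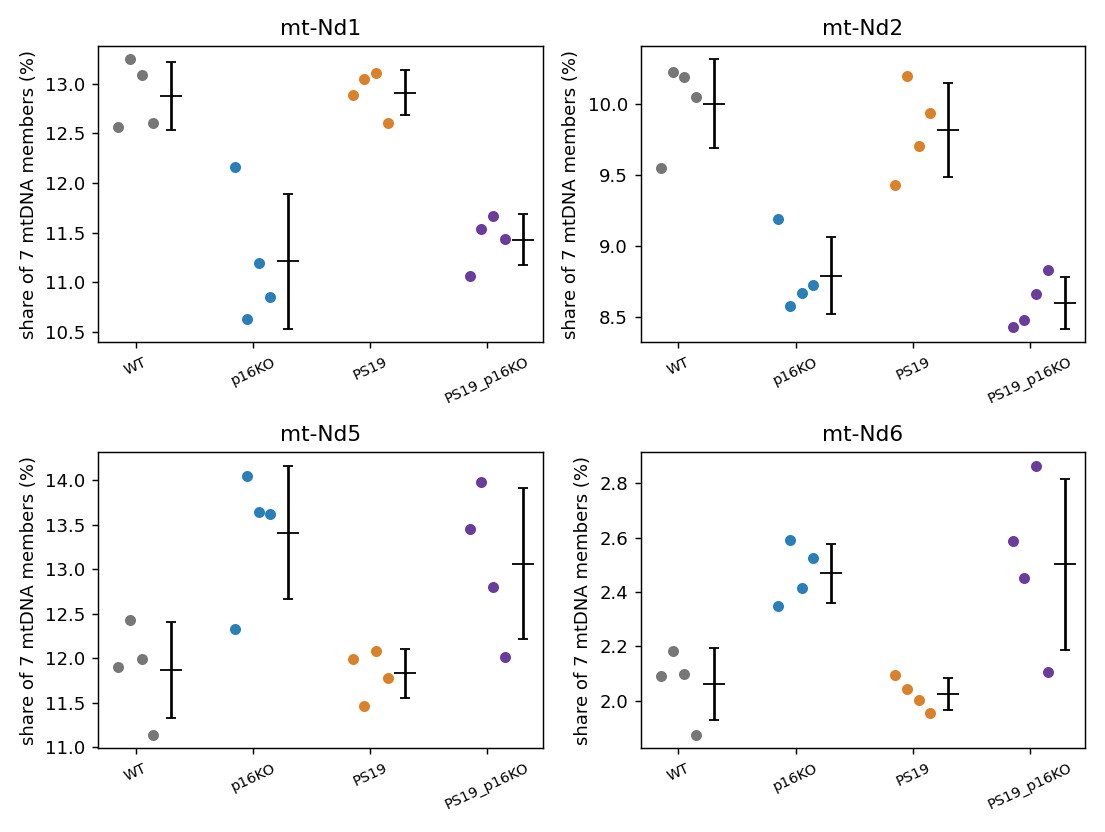
Share of mt-Nd1, mt-Nd2, mt-Nd5 and mt-Nd6 in the summed counts of the 7 well-counted mitochondrial members (percent; axes do not start at 0), by group. Points are libraries and bars the mean ± SD of 4; mt-Nd1 and mt-Nd2 are lower, without overlap, in both groups lacking p16.

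The p16 contrast was tested with a two-sided exact permutation test that reassigned libraries within the transgenic and the non-transgenic stratum (4900 assignments, smallest possible p 0.000408). The mean share of mt-Nd1 was 11.3% without and 12.9% with p16, that of mt-Nd2 8.70% without and 9.91% with p16 and that of mt-Nd6 2.49% without and 2.04% with p16, and each reached that smallest p (adjusted p 0.00476 over 35 tests). The share of mt-Nd5 was 13.2% without and 11.8% with p16 (exact permutation p = 0.00204, adjusted p 0.0179), and that of mt-Co1 40.2% without and 39.3% with p16 (exact permutation p = 0.00612, adjusted p 0.0429). Because the contrast was chosen after its values were seen, these p-values restate the separation that led to it. The adjustment does not cover that choice. The shares sum to a fixed total, so the calls are not independent of each other. Under the same limits, the calls of mt-Nd1, mt-Nd2, mt-Nd5 and mt-Nd6 held without each library in turn, with the adjustment repeated over the 35 tests. Libraries of mt-Nd1, mt-Nd2 and mt-Nd6 did not overlap within either stratum. For these genes the outcome therefore followed from the separation already seen and is no further support. The call of mt-Co1 was lost without any 1 of 10 libraries, WT 2 and 3, p16KO 2, 3 and 4, PS19 1, 2, 3 and 4 and PS19_p16KO 4 (exact permutation, adjusted p 0.0629 to 0.0914). Without the 3 libraries high in Ttr the adjusted p of the exact permutation test was 0.0625 for mt-Nd5 and 0.111 for mt-Co1, and 0.0167 for each of mt-Nd1, mt-Nd2 and mt-Nd6. For mt-Nd4 and mt-Cytb the exact permutation p was 0.0706 and 0.377. With 4 libraries against 4 the smallest possible p is 0.0286, which mt-Nd1, mt-Nd2 and mt-Nd6 reached both for p16KO against WT and for PS19_p16KO against PS19 (adjusted p 0.0833). For PS19 against WT and for PS19_p16KO against p16KO no share had an exact permutation p under 0.143. As a ratio to mt-Co1, mt-Nd1 was 0.263 to 0.309 without p16 and 0.315 to 0.346 with it, and mt-Nd2 was 0.211 to 0.234 and 0.238 to 0.267.

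On the level itself, the log2 fold change of mt-Nd1 was -0.27 ± 0.16 for p16KO against WT (adjusted p = 0.999) and -0.18 ± 0.16 for PS19_p16KO against PS19 (adjusted p = 0.814). For mt-Nd6 it was 0.20 ± 0.13 (adjusted p = 0.999) and 0.28 ± 0.13 (adjusted p = 0.573). The shared spread of mitochondrial RNA between libraries, which cancels in a share, enters these levels in full.

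Whether the 2 genomes moved together between libraries was asked with 1 gene of each, mt-Co1 and Cox4i1, both of complex IV. Across 16 libraries the log2 CPM of the 2 genes had a Pearson r of 0.304 (permutation p = 0.251) and a Spearman rho of 0.362 (permutation p = 0.168). Without WT 4 and PS19 2, the libraries farthest from the median of mt-Co1, r was 0.378 (permutation p = 0.18). After group means were removed r was 0.397 (permutation p = 0.127), so no relation was detectable at this number of libraries. Both genes share the depth and scaling of a library.

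Genes around the chain that the rule left out were described from lists. Of 40 tested assembly factors outside the Ndufaf type, 1 was called in any of the 5 comparisons: Cox7a2l, a protein that joins complexes III and IV into supercomplexes, at chr17:83501918-83517330. It was at 69.4, 71.4, 67.8 and 65.2 CPM in WT and 82.5, 90.9, 86.3 and 80.9 in p16KO. Its level was 69.1, 76.0, 59.7 and 64.1 CPM in PS19 and 94.1, 91.9, 94.3 and 74.2 in PS19_p16KO. All p16KO libraries lay above all WT libraries, where 2.94% of all genes did not overlap in either direction. Of the PS19_p16KO libraries 3 of 4 lay above all PS19 libraries, with PS19_p16KO 4 the exception. The log2 fold change was 0.40 ± 0.076 for PS19_p16KO against PS19 (adjusted p = 0.0171) and 0.31 ± 0.076 for p16KO against WT (adjusted p = 0.463), while for PS19 against WT it was -0.026 ± 0.077. The call was lost without PS19_p16KO 1 (adjusted p 0.0625), without PS19_p16KO 2 (0.0637), without the 3 libraries high in Ttr (0.0586), with only the compared groups fitted (0.16) and with scaling by spike-ins (1). The log2 fold change lay between 0.37 and 0.40 in these 5 settings.

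Nnt, the proton-driven transhydrogenase of the inner membrane, is known to carry a deletion in C57BL/6J mice. It was one of 16 tested carriers and linked enzymes, none of which was called by edgeR. For p16KO against WT 3 of these had an unadjusted p under 0.05, where 3.99% of all genes did. Nnt was at 19.9, 20.9, 21.0 and 19.0 CPM in WT and 29.1, 26.8, 32.2 and 32.3 in p16KO. With the transgene the level was 18.9, 24.2, 18.6 and 19.9 CPM in PS19 and 27.9, 25.4, 34.1 and 20.5 in PS19_p16KO. All p16KO libraries exceeded all WT libraries, where 2.94% of all genes did not overlap in either direction, and PS19_p16KO 4 lay among the PS19 values. The log2 fold change was 0.58 ± 0.12 for p16KO against WT (adjusted p = 0.182) and 0.40 ± 0.12 for PS19_p16KO against PS19 (adjusted p = 0.162). DESeq2 (adjusted p 0.0126), limma-voom (0.043) and a fit of only the compared groups (0.00524) called p16KO against WT, as did edgeR without PS19_p16KO 3 (0.0397) or PS19_p16KO 4 (0.0335). Without PS19_p16KO 4 the PS19_p16KO against PS19 value was 0.51 (adjusted p 0.0435).

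Cyc1, the cytochrome c1 of complex III, averaged 117 ± 2.87, 119 ± 5.43, 115 ± 8.49 and 122 ± 8.13 CPM in WT, p16KO, PS19 and PS19_p16KO, and Cycs, cytochrome c itself, averaged 117 ± 4.68, 119 ± 7.99, 112 ± 2.73 and 117 ± 2.99. Among 12 nuclear regulators of respiratory genes and 26 tested genes of mitochondrial DNA transcription, replication and RNA handling, 0 were called by edgeR in any comparison. For PS19 against WT 1 and 0 of these had an unadjusted p under 0.05, where 9.57% of all genes did. The 1 was Ppargc1a, the coactivator that drives mitochondrial biogenesis, at 56.3 ± 8.06 CPM in WT and 48.7 ± 3.64 in PS19 (log2 fold change -0.21 ± 0.086, adjusted p = 0.374). Tfam, which packages and transcribes mitochondrial DNA, ranged from 30.3 to 37.3 CPM over all libraries. Citric acid cycle and mitochondrial content genes had 0 of 24 called and glycolysis genes 0 of 16 in each comparison by edgeR. For PS19_p16KO against PS19, 0 and 2 of these had an unadjusted p under 0.05, where 8.59% of all genes did. The median log2 fold changes of the lists were 0.029 and 0.071. Positive values were held by 21 of the 24 and 15 of the 16, where 50.6% of all genes were positive. For PS19_p16KO against p16KO 22 and 16 were positive (51.8% of all genes). For PS19 against WT 9 and 5 were positive (48.3%), and for p16KO against WT 9 and 3 (49.7%).

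Cell type markers differed in the same comparisons. Over all genes tested, 1.61% were called for PS19 against WT and 0.825% for PS19_p16KO against PS19. Of 8 microglia markers, 6 were called higher for PS19 against WT, by 0.65 (Cx3cr1) to 1.59 (C1qb) on the log2 scale, and 3 lower for PS19_p16KO against PS19, Csf1r by -0.64 and C1qa and C1qb by -1.32. Their summed level was 302 to 339 CPM in WT, 325 to 403 in p16KO, 419 to 853 in PS19 and 359 to 398 in PS19_p16KO, and no marker was at 0. Of 8 astrocyte markers 1 was called, Gfap, at 1.84 for PS19 against WT and -1.60 for PS19_p16KO against PS19, and the summed level was 1789 to 2027 CPM in WT, 1779 to 2168 in p16KO, 2293 to 4491 in PS19 and 1879.9 to 2020.5 in PS19_p16KO. Of 10 neuron and 8 oligodendrocyte markers 0 were called by edgeR in any comparison. At an unadjusted p under 0.05, 0 and 7 passed for PS19 against WT (9.57% of all genes). For p16KO against WT 0 and 5 passed (3.99%), and for PS19_p16KO against PS19 3 and 1 (8.59%). In PS19_p16KO against p16KO 2 and 1 did (3.65%). Positive values were held by 7 of the 10 neuron markers for PS19_p16KO against PS19 (median log2 fold change 0.088) and by 2 for PS19 against WT. Among all genes 50.6% and 48.3% were positive. The summed oligodendrocyte level was 2417 to 3508 CPM in WT, 3159 to 3573 in p16KO, 3065 to 4146 in PS19 and 3094 to 3985 in PS19_p16KO. The summed neuron level was 9349 to 10379 CPM in WT, 9277 to 9895 in p16KO, 8426 to 9654 in PS19 and 8993 to 9985 in PS19_p16KO. The part of these cell types in the values of Ndufaf4, Ndufaf2, Uqcrc2 and the other members was not tested.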

How the data were processed

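Hippocampal total RNA was sequenced in 16 libraries, 4 per group, taken from the labels. The authors deposited whole-number counts per gene in 1 table. Per the submitters' processing notes, the tools included DESeq2, featureCounts, Subread 1.5.2, STAR 2.5.2b and Trimmomatic 0.36, with the build GRCm38. The sources used here give no annotation release, strand setting or handling of reads with several positions, so overlapping, antisense and near-identical genes are uncertain. Symbols and coordinates came from GENCODE M21 by Ensembl identifier for 49412 of 49671 rows. The 92 ERCC spike-in rows, 0.574% to 1.06% of counts, were left out.

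Counts were tested with edgeR 4.0.16 (R 4.3.3): filterByExpr with a minimum count of 10, TMM, a robust quasi-likelihood fit of all 16 libraries, and Benjamini-Hochberg adjustment over 16372 genes (threshold 0.05). Log2 fold changes carry standard errors. CPM per kb used the median transcript length of a gene. Shares of mitochondrial members, a result added after seeing the data, were tested with exact permutations. The edgeR fit was run on simulated counts with changes set in PS19, and its outcome is not reported here. The permutation tests of shares were not simulated. Alternatives included DESeq2 1.42.0, limma-voom (limma 3.58.1), RLE scaling, no filter, CPM above 1 in 4 libraries, the replicate block, a library-name digit as a term, only the compared groups, no robust dispersion, scaling without mitochondrial genes, spike-in scaling and leaving out each library, and 2 added after seeing the data: omitting the 3 libraries highest in Ttr, and the ratio to mt-Co1.

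Members and lists were chosen with earlier results of these data known. Genes named were the mitochondrial members, 6 isoform pairs, Cyc1, Cycs, Ppargc1a, Tfam, Nnt, and in each nuclear class the 2 highest per length and the smallest p of each comparison, with called list genes. Ndufs8, genes holding promoter motifs, tissue markers, Ttr, Cdkn2a and the chromosome 1 copies were named outside that rule, after their values were seen. Depth was 18485552 to 22311322 gene counts per library.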

Additional observations from a re-analysis of the deposited data

Results flagged for a closer look

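In 38 of 316 groups of 4 libraries checked, the gap between 1 library and the nearest of the others took more of the group's range than Dixon's 95% critical value allows. Chance flags about 1 in 20 groups, and the values are not independent because members share libraries. The library p16KO 1 stood apart in 9 values and PS19_p16KO 4 in 7. In p16KO 1 the summed CPM of the nuclear members was 9503 against 8401 to 8538 in the other 3, that of complex I subunits 2659 against 2312 to 2345, and that of complex V 3559 against 3267 to 3296. Single genes high in p16KO 1 were Atp5b at 1173 against 1104 to 1113 CPM, Atp5j at 118 against 95.8 to 97.1, Atp5mpl at 34.2 against 23.3 to 24.8, Cox6c at 126 against 97.1 to 99.6, Cox8a at 196 against 148 to 152 and Ndufaf4 at 30.1 against 25.1 to 25.9.

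In PS19_p16KO 4 the mitochondrial sum was 15224 against 11954 to 12509.8 CPM in the other 3 of its group, the sum of mitochondrial complex I genes 6338 against 5177 to 5362, that of mitochondrial complex IV genes 6319.9 against 4794 to 5022 and mt-Co1 alone 6318 against 4793 to 5020.3. The share of mt-Co1 there was 41.5 against 40.0 to 40.2%. The same library was low in Cox7a2l, at 74.2 against 91.9 to 94.3 CPM, and high in Ndufaf5, at 22.9 against 21.6 to 21.7.

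The libraries rich in Ttr gave Cox8b values of 0.782 CPM (WT 1), 1.51 (p16KO 4) and 3.76 (PS19_p16KO 3), where the other libraries reached at most 0.380. PS19_p16KO 3 also held Cox6b2 at 4.24 against 0.716 to 1.12 CPM and Cox7b2 at 0 against 0.0477 to 0.0546. WT 1 was high in Ndufaf5, at 25.4 against 20.5 to 21.3 CPM, and in the sum of assembly factors, at 147 against 140.2 to 141.

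In WT 2 the nuclear sum was 8281 against 8687 to 8718 CPM, the sum of complex I subunits 2253 against 2379 to 2399, Cox4i1 347 against 413 to 426 and Cyc1 113 against 118 to 119. In WT 4 complex II summed to 712 against 734 to 737 CPM, Cox6a2 was at 2.31 against 0.834 to 0.900 and mt-Nd4l at 2.31 against 1.20 to 1.37. In p16KO 2 Cox7a1 was at 0.410 against 0.886 to 0.97 CPM. Among the PS19 libraries, PS19 2 held Atp5a1 at 850.5 against 901 to 906, Ndufa4 at 129 against 115 to 117, Sdha at 474 against 469 to 469.7 and mt-Co2 at 1.09 against 0.592 to 0.597 CPM. PS19 1 held Ndufb6 at 39.8 against 36.1 to 36.7 and Ppargc1a at 54.1 against 46.1 to 47.4, and PS19 3 held Cox5a at 63.9 against 70.5 to 71.0.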

How the results depend on the processing

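Members called changed in 1 comparison: for PS19 against WT, DESeq2 and edgeR without PS19 3 each called 1, Ndufaf4, and leaving out each library in turn gave 0 to 1. The log2 ratio of mitochondrial to nuclear members as a mean over genes was -0.41 for PS19 against WT and 0.30 for the interaction, against -0.17 and 0.014 from summed counts; low-count genes weigh fully in that mean. The cause was not tested. Without each library in turn the ratio ran over -0.31 to -0.075 for PS19 against WT, -0.15 to 0.023 for p16KO against WT, -0.15 to 0.079 for PS19_p16KO against PS19, -0.24 to -0.11 for PS19_p16KO against p16KO and -0.084 to 0.15 for the interaction. The nuclear median ran over 0.0046 to 0.057, -0.023 to 0.055, 0.048 to 0.10, 0.038 to 0.13 and 0.012 to 0.10 in that order, and the mitochondrial median over -0.36 to -0.073, -0.23 to 0.016, -0.10 to 0.19, -0.17 to -0.044 and -0.020 to 0.25.

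Contrasts of p16 in shares (percentage points) were adjusted again over the whole family of exact permutation tests in each alternative. As a ratio to mt-Co1, over 30 tests, mt-Nd4 passed the threshold (-0.0075, adjusted p 0.0214) and mt-Nd5 did not (0.028, adjusted p 0.0539). Without the 3 libraries high in Ttr, mt-Nd5 (1.40) and mt-Co1 (1.04) did not pass. Leaving out each library, the values ran over -1.73 to -1.47 for mt-Nd1, -1.29 to -1.15 for mt-Nd2, 1.24 to 1.57 for mt-Nd5 and 0.38 to 0.51 for mt-Nd6, whose calls held, and over 0.76 to 1.09 for mt-Co1, whose call was lost in 10 of 16. The cause of these changes was not tested. That the calls of mt-Nd1, mt-Nd2 and mt-Nd6 held followed from the separation of their libraries within both strata. No direction of a called value was reversed by any alternative.

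The 24 pairs with the same replicate number had correlations of deviations from group means of -0.388 to 0.223, with 6 over 0.1. Pairs with different numbers ran from -0.331 to 0.558, so these values do not settle whether replicate numbers pair the samples. With the replicate number as a block, 0 members were called in each comparison, and the shares of mt-Nd1 (-1.57), mt-Nd2 (-1.21), mt-Nd5 (1.39) and mt-Nd6 (0.44) had an exact permutation p of 0.00781, the smallest that design allows (adjusted p 0.0684 over 35 tests), and mt-Co1 (0.93) one of 0.0313 (adjusted p 0.219), so no share was called. Spike-in scaling moved the median of all genes by at most -0.061. In low-count members such as mt-Co2 or Cox7a1, depth allowed only large differences to be seen.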
